A study of Mus musculus with 15 samples.

Results

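Imprinted genes, which are transcribed from only the maternal or only the paternal copy, were followed in RNA-seq of adult neural stem cells (aNSCs). The 32 genes were taken by name from a list of mouse imprinted genes, out of 53801 genes in the count table. The list was drawn up because H19 had been seen among the largest rises after 4-hydroxytamoxifen (4-OHT) in an earlier analysis of these data. It was therefore chosen by the 4-OHT comparison, and the values of its members there are given as a description. The genes fall into 16 imprinted clusters, 7 of them with at least 2 listed genes, and 14 genes lie on chromosome 7. By textbook knowledge 9 are expressed from the maternal copy, 20 from the paternal copy, and for 3 (Grb10, Ube3a and Gnas) the expressed copy depends on the tissue or the promoter. The table has 1 count per gene and library, so the copies of a gene cannot be told apart.

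The cultures came from the subventricular zone of 2-month-old C57BL6/J-129sv mice and were grown in suspension with EGF and bFGF. All 15 carried the Rosa26-CreERT2 transgene, from which a ubiquitous promoter makes a recombinase that 4-OHT switches on. The Fl/+ untreated group had 1 floxed Trrap allele and received nothing. The Fl/+ 4-OHT group was given 4-OHT, so its floxed allele was also open to recombination. Both Fl/+ groups carry the numbers 19, 24, 26, 35 and 36 in their titles, read here as the same 5 mice. The Fl/Fl 4-OHT group, from mice 27, 28, 29, 37 and 39, had both alleles floxed and was given 4-OHT. Every group had 5 cultures, of which the labels give 3 as male and 2 as female, and the treatment is labelled as lasting 5 days. The published methods describe a shorter exposure followed by fresh medium, so the time in 4-OHT is not certain. There was no untreated Fl/Fl group, and Fl/Fl and Fl/+ cultures came from different mice. Trrap is a scaffold protein of histone acetyltransferase complexes, and the study asked what its loss changes in these cells.

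Imprinting rests on differentially methylated regions, which carry DNA methylation on 1 parental copy from the germ line onward. A single such region can set the expression of several neighbours, often through a long non-coding RNA made from the copy on which the protein-coding neighbours are silent. In the brain, imprinted genes act on growth, metabolism and the division of stem cells. In the neural stem cells of the subventricular zone, the usual restriction to 1 copy is known to be relaxed for Dlk1.

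Libraries held 25720034 to 32187097 assigned counts, and 3 counts, taken as the floor of detection, correspond to 0.0942 to 0.119 CPM, the count scaled by library size. Trrap was at 176 to 210 CPM in untreated Fl/+ cultures, 141 to 202 CPM in Fl/+ 4-OHT cultures and 83.2 to 144 CPM in Fl/Fl 4-OHT cultures. All 8 neural stem cell markers examined (Sox2 and Nes among them) were at or above 1 CPM in every group, and the defining markers Ttr of choroid plexus, Cldn5 and Cdh5 of endothelium, and Aif1, Cx3cr1 and Tmem119 of microglia had at most 3 counts in every library. Other markers of these lists were low but detected, at up to 28 counts for Aqp1 and 11 for Clic6 (choroid plexus), 11 for Pecam1 (endothelium), and 30 for P2ry12 and 25 for Csf1r (microglia). The whole lists summed to at most 1.46 CPM for choroid plexus, 0.427 CPM for endothelium and 2.02 CPM for microglia. The library labelled Fl/Fl 39 is labelled female but had 0.314 CPM of Xist and 214 CPM summed over 4 Y-linked genes. Both libraries of mouse 36, labelled male, held Y-linked RNA (217 and 208 CPM) together with Xist, at 5.88 CPM untreated and 75.6 CPM after 4-OHT. Results without these 3 libraries, called here the libraries at odds with their sex label, are given beside those they change. The library labelled Fl/Fl 37 also stood apart. It was the highest of the Fl/Fl cultures for 11 of the 25 imprinted genes tested. Its 5 oligodendrocyte markers summed to 2520 CPM against 633 to 881 CPM in the other Fl/Fl cultures. Other lists differed there too, with astrocyte markers highest, at 5850 CPM against 2580 to 3120 CPM. Neuronal markers were lowest, at 555 CPM against 717 to 816 CPM.

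Sequences of the genes on which the results turn are shown first. RefSeq promoter windows on GRCm38.p6, from 250 bases before to 50 after a gene's start, were matched by symbol for 26 of the 32 genes, with 39 windows in all. Capitals mark matches to TGCCGC, the core motif that the imprint keeper ZFP57 reads when it is methylated, or to GGGCGG, the GC box of Sp factors, on either strand. Nnat (chr2:157559828-157560127, plus strand) and Meg3 (chr12:109540746-109541045, plus strand) each held a TGCCGC match. Igf2r (chr17:12769657-12769956, minus strand) and Rasgrf1 (chr9:89909525-89909824, plus strand) held GC boxes. Usp29 (chr7:6730333-6730632, plus strand) held neither, and is shown because its window shares 263 bases with that of Peg3, which is transcribed the other way. In the GENCODE gene annotation, which differs from RefSeq here, the starts of this pair lie 147 bases apart.
Nnat: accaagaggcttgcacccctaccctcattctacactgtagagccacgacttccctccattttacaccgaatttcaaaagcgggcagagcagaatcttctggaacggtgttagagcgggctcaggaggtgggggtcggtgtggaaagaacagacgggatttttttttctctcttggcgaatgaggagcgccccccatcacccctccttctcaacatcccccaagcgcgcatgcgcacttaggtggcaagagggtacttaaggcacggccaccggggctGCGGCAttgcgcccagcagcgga
Meg3: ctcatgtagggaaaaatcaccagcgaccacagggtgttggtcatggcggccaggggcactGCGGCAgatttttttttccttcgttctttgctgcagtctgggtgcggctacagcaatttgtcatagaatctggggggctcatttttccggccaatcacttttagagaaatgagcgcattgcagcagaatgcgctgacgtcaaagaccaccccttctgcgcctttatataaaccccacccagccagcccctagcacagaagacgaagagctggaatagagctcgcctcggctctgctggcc
Igf2r: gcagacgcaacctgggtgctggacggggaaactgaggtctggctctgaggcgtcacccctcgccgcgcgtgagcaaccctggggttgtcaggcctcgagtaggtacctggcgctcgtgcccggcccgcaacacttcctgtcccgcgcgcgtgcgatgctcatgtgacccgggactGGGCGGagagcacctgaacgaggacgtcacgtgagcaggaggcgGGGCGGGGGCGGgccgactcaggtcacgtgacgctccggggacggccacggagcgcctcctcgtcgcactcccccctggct
Rasgrf1: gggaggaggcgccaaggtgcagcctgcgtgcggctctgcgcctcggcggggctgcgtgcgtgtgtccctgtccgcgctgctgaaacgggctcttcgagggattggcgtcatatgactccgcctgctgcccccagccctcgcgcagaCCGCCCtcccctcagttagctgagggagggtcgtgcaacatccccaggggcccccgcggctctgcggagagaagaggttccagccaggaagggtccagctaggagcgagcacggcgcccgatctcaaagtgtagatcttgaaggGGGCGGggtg
Usp29: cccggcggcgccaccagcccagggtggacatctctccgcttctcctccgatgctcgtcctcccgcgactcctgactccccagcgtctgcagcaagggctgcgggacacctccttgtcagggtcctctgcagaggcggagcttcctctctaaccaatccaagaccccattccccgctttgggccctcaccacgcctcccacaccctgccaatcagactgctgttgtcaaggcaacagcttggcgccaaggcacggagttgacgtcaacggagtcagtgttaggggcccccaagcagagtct

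Over all windows of the imprinted genes, TGCCGC was found in 10 of 39 (25.6%), against 11.6% of the 32851 promoter windows of the table. GGGCGG was found in 19 of 39 (48.7%), against 35.7%. In no window of an imprinted gene did matches to the 2 motifs share bases. Several of the genes have more than 1 window, and Snrpn and Snurf share one. These matches are a description of the letters and were not tested.

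H19, Meg3 and Rian are also hosts of small RNAs. The mature miRNAs below lie inside them, with the seed (bases 2 to 8) in capitals and sequences from RefSeq, and none of the 6 shares a seed with another. They show what the host transcripts can give rise to, since the poly(A) libraries measured the hosts and not the mature miRNAs. The pair of miR-675 lies in an exon of H19, that of miR-770 in Meg3, and miR-341-3p and miR-370-3p lie in Rian.
miR-675-5p: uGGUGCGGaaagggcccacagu
miR-675-3p: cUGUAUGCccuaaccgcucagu
miR-770-5p: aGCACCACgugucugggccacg
miR-770-3p: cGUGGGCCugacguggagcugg
miR-341-3p: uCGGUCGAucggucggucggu
miR-370-3p: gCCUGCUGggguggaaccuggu

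The imprinted genes differed widely in level. 25 of the 32 genes passed the filter on low counts in each comparison. Compared as mean CPM per kb of exon over the 15 libraries, Nnat, a small membrane proteolipid of the developing brain, was highest at 286, and Gnas, which encodes the stimulatory G protein alpha subunit among other products, followed at 176. Mest, an alpha/beta hydrolase, was at 101. The next were Snrpn, a spliceosomal protein, at 24.1, Peg3, a zinc finger protein, at 21.9, and H19 at 20.1 CPM per kb. These means pool groups that differ. In Fl/Fl cultures Gnas, at a mean of 157, stood above Nnat, at 135 CPM per kb, and it was the higher of the pair in 4 of 5 Fl/Fl libraries and in 0 of the 10 Fl/+ libraries. The group means of H19 ran from 0.399 in untreated to 19.9 in Fl/+ 4-OHT and 39.9 CPM per kb in Fl/Fl cultures. The ranges over libraries of Snrpn, Peg3 and H19 overlapped, so their order is not fixed. Kcnq1ot1, a very long antisense RNA, was lowest of those tested at 0.0347 CPM per kb.

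**Figure D1:**
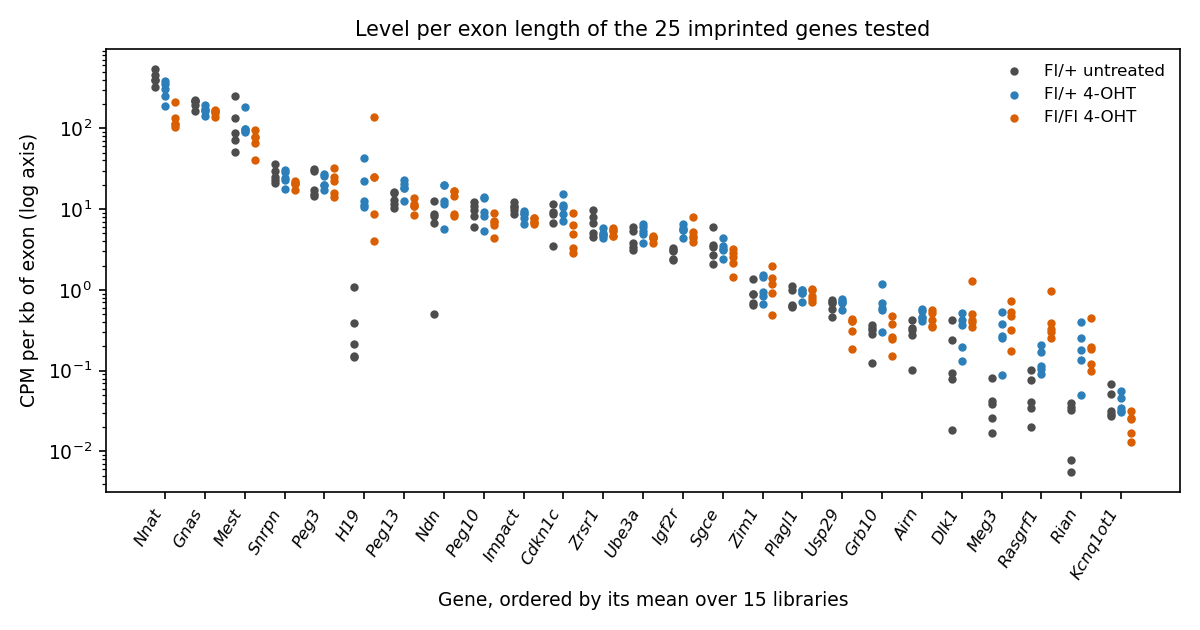
CPM per kb of exon (log axis) of the 25 imprinted genes that passed the filter, ordered by their mean over 15 libraries, with 1 point per library. The means run from 286 for Nnat to 0.0347 for Kcnq1ot1, and the untreated points of H19, Meg3 and Rian lie below their other points.

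The comparison of Fl/+ cultures with and without 4-OHT shows the imprinted genes before homozygous deletion of Trrap comes in. H19, Meg3, Rian and Igf2r, all expressed from the maternal copy, were higher after 4-OHT, and the libraries of the groups did not overlap for any of them. The share of all genes whose groups did not overlap was not computed. Of 25 imprinted genes tested, 4 (16%) were called (edgeR's quasi-likelihood test with Benjamini-Hochberg adjustment, threshold 0.05), all of them higher, against 13.8% of the 14821 genes tested, of which 7.34% were called higher and 6.45% lower. Of the 25 genes tested, 3 (H19, Meg3 and Rian) were called with at least a 2-fold change, against 4.79% of all genes tested. The 4 were among 6 maternally expressed genes, and the median of that class was 1.90 on the log2 scale. None of the 16 paternally expressed genes was called, and their median was 0.05. That contrast did not hold with the mouse in the model, where 5 of the 16 were called, 3 higher and 2 lower. The median over the 25 genes was 0.25, against -0.01 over all genes. Since the list was selected on this comparison, the counts carry no support of their own.

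H19, a long non-coding RNA that restrains growth in the embryo and is silenced in most tissues after birth, had the largest difference (ENSMUSG00000000031, GRCm38 chromosome 7, 142575529 to 142578143, minus strand). It was at 0.960, 2.67, 0.522, 0.378 and 0.367 CPM in untreated cultures of mice 19, 24, 26, 35 and 36. After 4-OHT the same mice had 107, 27.3, 26.1, 30.7 and 54.1 CPM. Every culture was higher after 4-OHT than before it, by 10.2 to 147 times, with the smallest ratio in mouse 24, whose untreated culture was highest. The log2 fold change was 5.59 (SE 0.649, n = 5 each). It was 6.41 without the untreated library of mouse 24. Igf2, its neighbour, is a fetal growth factor expressed from the opposite copy in most tissues and shares enhancers with H19. It had at most 1 count in an untreated library and at most 2 after 4-OHT, under the floor of detection in both groups.

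In the Dlk1-Dio3 cluster on chromosome 12, Meg3 and Rian, non-coding RNAs of the maternal copy, were both higher after 4-OHT. Meg3 (ENSMUSG00000021268, 109541001 to 109571726, plus strand), the RNA that starts nearest the control region of the cluster, was at 0.462, 0.309, 0.766, 1.48 and 0.698 CPM in untreated cultures of mice 19, 24, 26, 35 and 36 and at 9.60, 1.60, 4.84, 4.54 and 6.75 CPM after 4-OHT. Rian (ENSMUSG00000097451, 109603940 to 109661716, plus strand), a host of small nucleolar RNAs, was at 0.142, 0.103, 0.592, 0.643 and 0.735 CPM untreated and at 7.26, 0.910, 2.5, 3.32 and 4.61 CPM after 4-OHT. Both were higher in 5 of 5 mice, and in both mouse 19 reached the highest and mouse 24 the lowest level after 4-OHT. The log2 fold changes were 2.85 (SE 0.5) for Meg3 and 3.04 (SE 0.615) for Rian. Mirg, the miRNA host further along the same copy, was too low to be tested, with 0 counts in all untreated libraries and 6, 1, 0, 2 and 6 after 4-OHT. The Meg3 to Rian ratio per kb ranged from 1.33 to 1.95 after 4-OHT. In untreated cultures it could not be read, since Rian had as few as 3 counts in a library.

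Dlk1, the paternally expressed gene of this cluster, encodes a membrane protein related to Notch ligands. It was at 0.533, 0.103, 0.453, 2.42 and 1.36 CPM in untreated cultures of mice 19, 24, 26, 35 and 36 and at 2.06, 0.753, 1.11, 2.97 and 2.43 CPM after 4-OHT. The groups overlapped, but 5 of 5 mice were higher after 4-OHT, and the log2 fold change of 0.91 (SE 0.639) was not called without the mouse in the model. It ran from 0.62 without the untreated library of mouse 24 to 1.59 without that of mouse 35. Dio3, a deiodinase that inactivates thyroid hormone, had 0 counts in every library.

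Igf2r and Airn form a pair on chromosome 17. Igf2r, the receptor that clears IGF2 and carries lysosomal enzymes, is expressed from the maternal copy outside neurons, and Airn, an antisense RNA from the paternal copy, overlaps its start and silences it there. Igf2r (ENSMUSG00000023830, 12682406 to 12769664, minus strand) was at 30.7, 29.5, 22.0, 22.3 and 28.2 CPM in untreated cultures of mice 19, 24, 26, 35 and 36 and at 51.8, 61.3, 40.8, 54.3 and 52.0 CPM after 4-OHT. The log2 fold change was 0.95 (SE 0.136). Airn (ENSMUSG00000078247, 12741311 to 12860136, plus strand) was at 1.21, 1.54, 1.15, 0.983 and 0.367 CPM untreated and at 1.48, 1.63, 2.10, 1.95 and 1.68 CPM after 4-OHT, a log2 fold change of 0.72 (SE 0.313) that was not called. Airn was thus not lower where Igf2r was higher, and both were higher after 4-OHT in 5 of 5 mice. The stranded counting keeps the 2 transcripts apart.

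**Figure D2:**
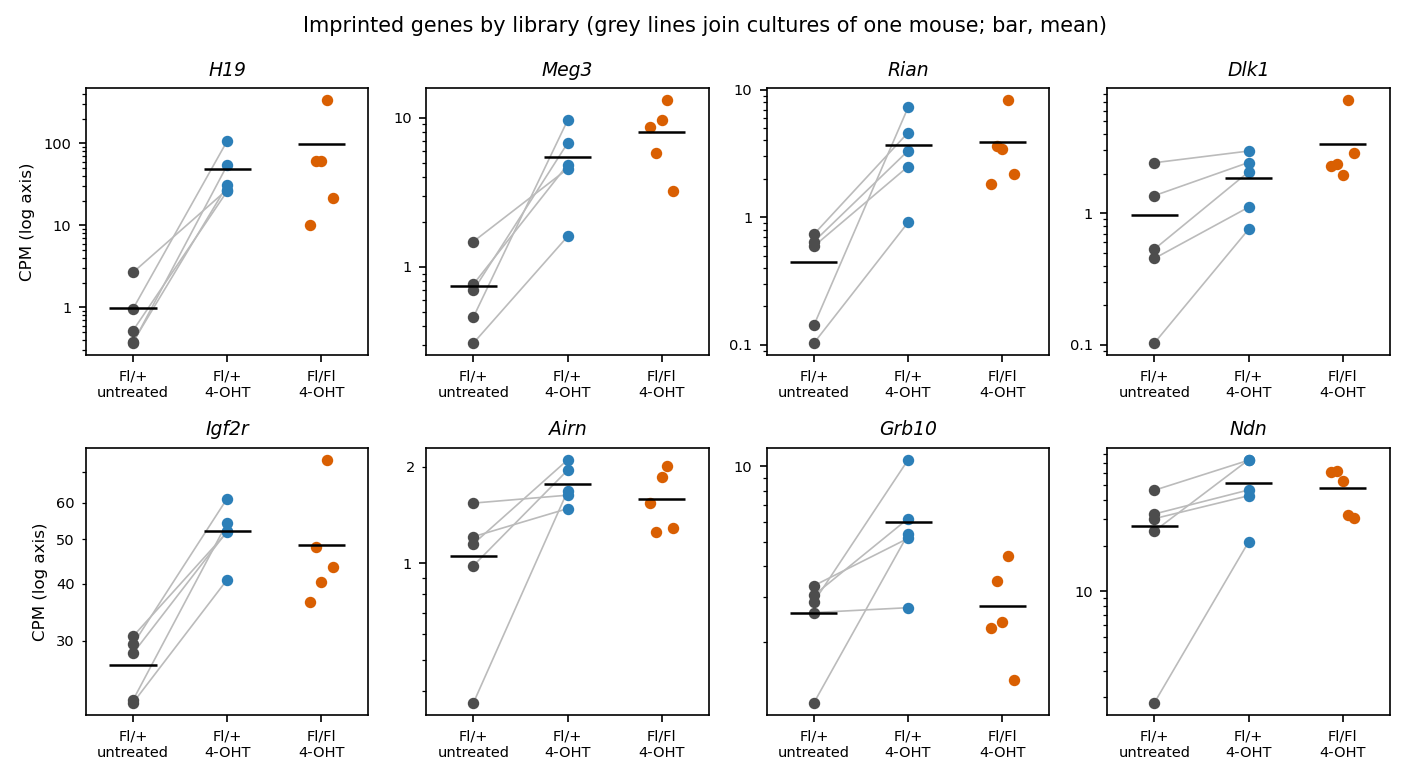
CPM (log axis) of 8 imprinted genes in each of the 15 libraries by group, where grey lines join the cultures of a mouse before and after 4-OHT and black bars are group means. Lines slope upward in 5 of 5 mice for each of the 8 genes, and H19, Meg3, Rian and Igf2r show no overlap between untreated and treated Fl/+ cultures.

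Because both Fl/+ groups carry the same mouse numbers, the comparison was also fitted with the mouse as a replicate block. The number of imprinted genes called then went from 4 to 11, with 8 higher and 3 lower, and over all genes 3809 of 14821 were called. Added to the 4 above were Dlk1 (log2 fold change 1.19), Grb10 (1.12), Ndn (1.17) and Peg13 (0.43) as higher, and Nnat (-0.55), Gnas (-0.30) and Impact (-0.37) as lower. Grb10 is an adaptor that dampens insulin and IGF signalling, Ndn a MAGE family protein that restrains cell division, and Impact an inhibitor of the translation kinase GCN2. Each of the 7 had its direction in 5 of 5 mice. This is no further support, since the block fit that picked them uses the same differences within mice. By the expressed copy, the 11 were 4 of 6 maternal genes, all higher, 5 of 16 paternal genes (Dlk1, Ndn and Peg13 higher, Nnat and Impact lower), and Grb10 and Gnas. Rasgrf1 was higher in 4 of 5 mice and was not called with the block. With both libraries of mouse 36 left out of the blocked fit, 10 imprinted genes (40%) were called, 7 higher and 3 lower, against 24% of 14918 genes. Grb10 (0.88) and Gnas (-0.32) then lost their call, Zrsr1 (-0.59), a splicing factor gene, was called lower, and Ndn stayed called at 0.78, from a ratio of 11.5 in mouse 36 and 1.41 to 2.94 in the other mice.

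Markers of other cell types moved with 4-OHT as well. The 5 astrocyte markers summed to 2140 to 3030 CPM untreated and 3200 to 4230 CPM after 4-OHT. Single members went opposite ways, with Gfap at a mean of 57.1 and 555 CPM and S100b at 61.1 and 16.6 CPM. The 5 oligodendrocyte markers summed to 201 to 662 and 475 to 983 CPM. The 3 ependymal markers summed to 27.2 to 63.3 and 40.2 to 92.8 CPM, and the 3 pericyte markers to 0.53 to 1.18 and 1.0 to 2.34 CPM. The 6 neuronal markers summed to 818 to 1100 and 821 to 1020 CPM. The 4 meningeal or fibroblast markers went from 29.8 to 98.2 CPM to 101 to 301 CPM. Of these 4, Pdgfra accounted for most, at a mean of 65.5 and 187 CPM. Pdgfra also marks oligodendrocyte precursors, and Lum had at most 1 count in a library. The part of these cells in the values of H19, Meg3, Rian and Igf2r was not tested, and in bulk RNA fewer cells of a type and less RNA per cell cannot be told apart. Mitochondrial genes held 1.72% to 3.56% of counts in untreated and 0.849% to 1.74% in treated Fl/+ cultures.

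The effect of losing Trrap was examined by setting Fl/Fl against Fl/+ cultures that had all received 4-OHT. Nnat, Usp29, Peg13, Cdkn1c, Kcnq1ot1 and Grb10 were lower in Fl/Fl cultures and Rasgrf1 was higher. The 7 called genes are 28% of the 25 tested, against 31.7% of the 15036 genes tested in this comparison, a share near that of genes at large. Of the 25 genes tested, 3 (Nnat, Grb10 and Rasgrf1) were called with at least a 2-fold change, against 5.83% of all genes tested. The median log2 fold change over the 25 genes was -0.14, against 0.02 over all genes. By the expressed copy, 1 of 6 maternal genes was lower, and of 16 paternal genes 4 were lower and 1 was higher. This comparison shares the Fl/+ 4-OHT libraries with the one above. Here too, the share of all genes whose groups did not overlap was not computed.

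Nnat (ENSMUSG00000067786, chromosome 2, 157560078 to 157562522, plus strand) is made from the paternal copy. It was at 652, 348, 710, 567 and 459 CPM in Fl/+ 4-OHT cultures of mice 19, 24, 26, 35 and 36 and at 207, 206, 189, 247 and 385 CPM in Fl/Fl cultures of mice 27, 28, 29, 37 and 39. All Fl/Fl cultures but that of mouse 39 lay below every Fl/+ 4-OHT culture. The log2 fold change was -1.13 (SE 0.228, edgeR adjusted p 0.00395). In untreated cultures it was at 595 to 996 CPM, and it was lower after 4-OHT in 5 of 5 Fl/+ mice, with group means of 772, 547 and 247 CPM from untreated to Fl/+ 4-OHT to Fl/Fl 4-OHT cultures.

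Rasgrf1 (ENSMUSG00000032356, chromosome 9, 89909908 to 90026977, plus strand), an exchange factor that activates Ras in response to calcium, was the only one of the 25 listed genes tested that was called higher. It was at 1.27, 1.00, 1.15, 2.30 and 1.86 CPM in Fl/+ 4-OHT cultures of mice 19, 24, 26, 35 and 36 and at 2.80, 4.26, 3.35, 10.8 and 3.63 CPM in Fl/Fl cultures of mice 27, 28, 29, 37 and 39. The groups did not overlap. The log2 fold change was 1.72 (SE 0.394, edgeR adjusted p 0.00724), and 1.21 (adjusted p 0.00664) without the library labelled Fl/Fl 37. Untreated cultures had 0.220 to 1.13 CPM.

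The Peg3 cluster on chromosome 7 held genes with unlike values in Fl/Fl cultures. Peg3 and Usp29 start from a shared bidirectional promoter region, printed above, and both are expressed from the paternal copy. Usp29, a ubiquitin protease gene (ENSMUSG00000051527, 6730578 to 6967219, plus strand), stood at 12.9, 13.8, 12.5, 13.2 and 10.1 CPM in Fl/+ 4-OHT cultures of mice 19, 24, 26, 35 and 36 and at 7.43, 7.47, 5.64, 3.37 and 7.95 CPM in Fl/Fl cultures of mice 27, 28, 29, 37 and 39. These groups did not overlap, and untreated cultures, at 8.32 to 13.6 CPM, also lay above all Fl/Fl cultures. This gave a log2 fold change of -0.96 (SE 0.214, edgeR adjusted p 0.00649). Peg3 (ENSMUSG00000002265, 6703892 to 6730431, minus strand) was at 226 to 367 CPM in Fl/+ 4-OHT and 191 to 435 CPM in Fl/Fl cultures, a log2 fold change of 0.01 (SE 0.219, edgeR adjusted p 0.977). Within each library the ratio of Peg3 to Usp29 per kb was 22.7 to 43.2 in untreated, 24.5 to 37.6 in Fl/+ 4-OHT and 50.5 to 76.9 in Fl/Fl cultures. This ratio was picked out after its values were seen, and its difference between groups was not tested. Zim1, a maternally expressed zinc finger gene next to Peg3, had 5.47 to 12.2 and 3.95 to 16.2 CPM in the groups given 4-OHT (log2 fold change 0.16, SE 0.344).

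**Figure D3:**
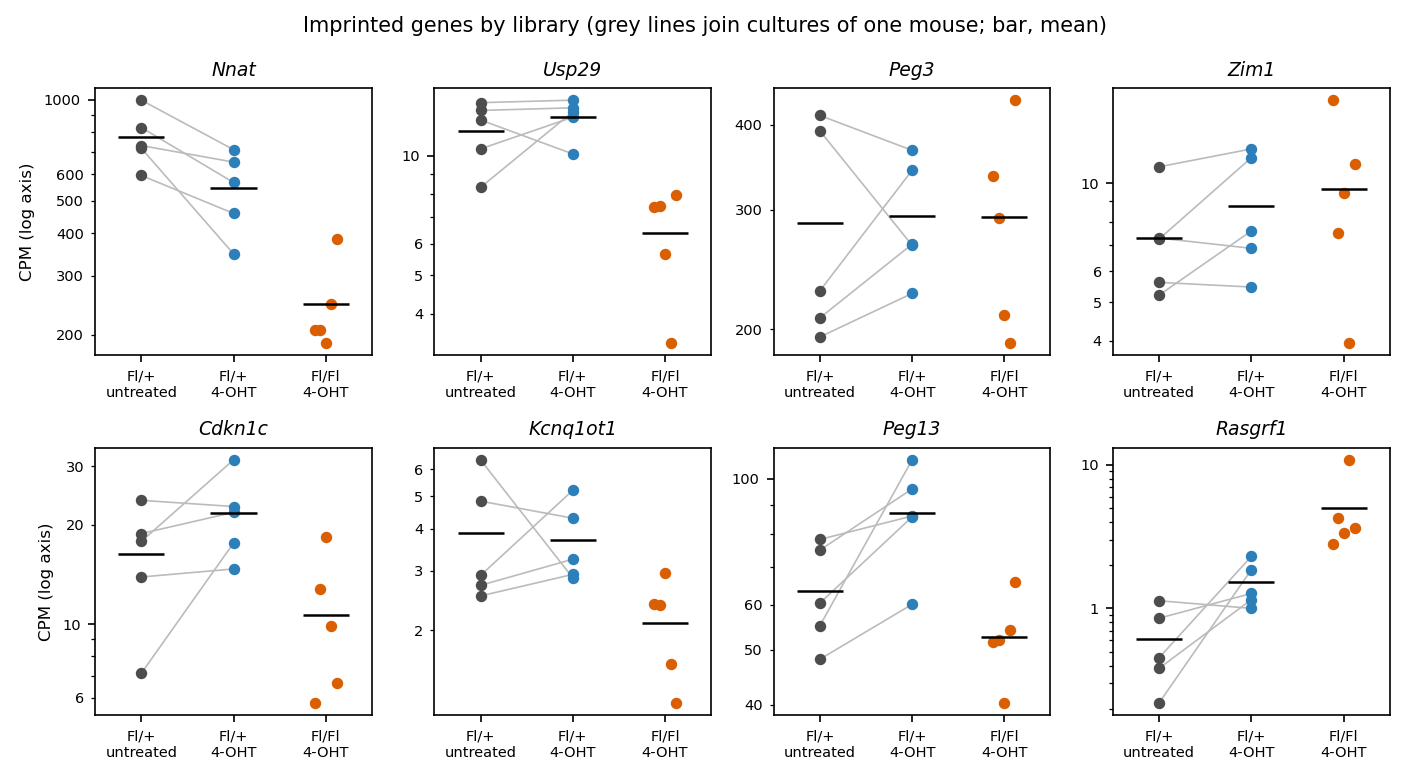
CPM (log axis) of 8 imprinted genes in each of the 15 libraries by group, where grey lines join the cultures of a mouse before and after 4-OHT and black bars are group means. Usp29 and Rasgrf1 show no overlap between Fl/Fl and Fl/+ 4-OHT cultures, whereas Peg3, which shares a promoter region with Usp29, spans 226 to 367 and 191 to 435 CPM in them.

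The Kcnq1 cluster holds the antisense RNA Kcnq1ot1, made from the paternal copy, and Cdkn1c, which encodes the cyclin-dependent kinase inhibitor p57 that keeps adult neural stem cells quiescent and is made from the maternal copy. Cdkn1c (chromosome 7, 143458339 to 143461050, minus strand) was at 14.7, 21.8, 22.7, 17.6 and 31.4 CPM in Fl/+ 4-OHT cultures of mice 19, 24, 26, 35 and 36 and at 5.79, 12.8, 18.3, 9.91 and 6.66 CPM in Fl/Fl cultures of mice 27, 28, 29, 37 and 39. Kcnq1ot1 (143203458 to 143296549, minus strand) was at 2.86 to 5.20 CPM in Fl/+ 4-OHT and 1.22 to 2.95 CPM in Fl/Fl cultures. The groups overlapped for both genes. The log2 fold changes were -0.99 (SE 0.311, edgeR adjusted p 0.0312) for Cdkn1c and -0.80 (SE 0.271, adjusted p 0.0432) for Kcnq1ot1. These calls were not stable. With the libraries at odds with their sex label left out, neither was called (log2 fold changes -0.71 and -0.74, adjusted p 0.129 and 0.0692). Nor was either called with sex as a covariate without Fl/Fl 39. With 1 library left out Cdkn1c lost its call in 5 of 10 fits and Kcnq1ot1 in 6 of 10. Kcnq1ot1 also lost it with library size alone (adjusted p 0.0527) and with no filter on low counts (0.0593).

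Peg13, a long non-coding RNA from an intron of Trappc9 on chromosome 15 (72805600 to 72810324, minus strand), was at 108, 60.1, 85.7, 96.0 and 86.0 CPM in Fl/+ 4-OHT cultures of mice 19, 24, 26, 35 and 36 and at 51.5, 52.0, 40.3, 54.2 and 65.7 CPM in Fl/Fl cultures of mice 27, 28, 29, 37 and 39. Mouse 39 alone of the Fl/Fl cultures reached the range of the Fl/+ 4-OHT cultures. Untreated cultures held 48.1 to 78.2 CPM, a range that takes in 4 of the 5 Fl/Fl cultures, and Peg13 was not called between these groups (log2 fold change -0.27, edgeR adjusted p 0.202). Between Fl/Fl and Fl/+ 4-OHT cultures the log2 fold change was -0.70 (SE 0.151, edgeR adjusted p 0.00537). Grb10 (chromosome 11, 11930508 to 12038683, minus strand) was at 10.6, 2.73, 5.16, 6.18 and 5.36 CPM in Fl/+ 4-OHT and 2.27, 3.48, 2.39, 4.37 and 1.40 CPM in Fl/Fl cultures, in the same order of mice. Its log2 fold change was -1.09 (SE 0.365, adjusted p 0.0413), and it was not called with sex as a covariate (adjusted p 0.0556) or without the libraries at odds with their sex label (adjusted p 0.101). With 1 library left out Grb10 lost its call in 8 of 10 fits, and its log2 fold change ran from -1.32 to -0.8. Fl/Fl cultures had about the level of untreated Fl/+ cultures, which held 1.14 to 3.34 CPM.

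Neither H19, Meg3, Rian nor Igf2r was called between Fl/Fl and Fl/+ 4-OHT cultures. H19 was at 10, 61.6, 60.9, 337 and 21.4 CPM in Fl/Fl cultures of mice 27, 28, 29, 37 and 39, a spread that held the whole range of the Fl/+ 4-OHT cultures. Its log2 fold change of 1.02 (SE 0.800, edgeR adjusted p 0.356) rested on mouse 37 and was -0.34 without that library. Meg3 was at 8.66, 5.78, 9.59, 13.1 and 3.21 CPM in these Fl/Fl cultures (log2 fold change 0.59 with SE 0.439, adjusted p 0.333). Rian was at 1.83, 3.62, 3.42, 8.29 and 2.20 CPM (log2 fold change 0.08 with SE 0.516, adjusted p 0.922). Igf2r was at 36.4, 48.1, 40.3, 74.4 and 43.4 CPM (log2 fold change -0.09 with SE 0.181, adjusted p 0.749), and Airn at 1.54, 1.25, 1.86, 2.01 and 1.29 CPM (-0.14, SE 0.198, adjusted p 0.631). Mouse 37 was the highest for each of these 5 genes. Without that library the log2 fold changes were 0.33 for Meg3, -0.41 for Rian, -0.3 for Igf2r and -0.25 for Airn, and none was called. Dlk1 was at 2.27, 2.37, 1.96, 7.24 and 2.86 CPM, again highest in mouse 37, and its log2 fold change of 0.86 (SE 0.441, adjusted p 0.161) fell to 0.35 without that library.

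The other 12 genes tested, Peg3 and Zim1 among them, were not called either, with log2 fold changes from -0.62 for Mest (SE 0.240, edgeR adjusted p 0.0675) to 0.16 for Zim1. Mest was called lower with DESeq2, without Fl/Fl 39, and with sex as a covariate without Fl/Fl 39. Snrpn and Impact were called lower without the Fl/+ 4-OHT library of mouse 24, and Peg10 and Ube3a without that of mouse 26. Peg10, a retrotransposon-derived gene needed in the placenta, and Sgce, epsilon-sarcoglycan, start side by side on chromosome 6 and had log2 fold changes of -0.57 (SE 0.258) and -0.43 (SE 0.212). In the Snrpn-Ube3a cluster, Snrpn was at -0.28, Ube3a, a ubiquitin ligase, at -0.26 and Ndn at -0.09 (log2 fold changes). Plagl1, a zinc finger factor known to act on other imprinted genes, was at -0.04 (SE 0.149), and Gnas, Impact and Zrsr1 lay between -0.18 and 0.09.

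**Figure D4:**
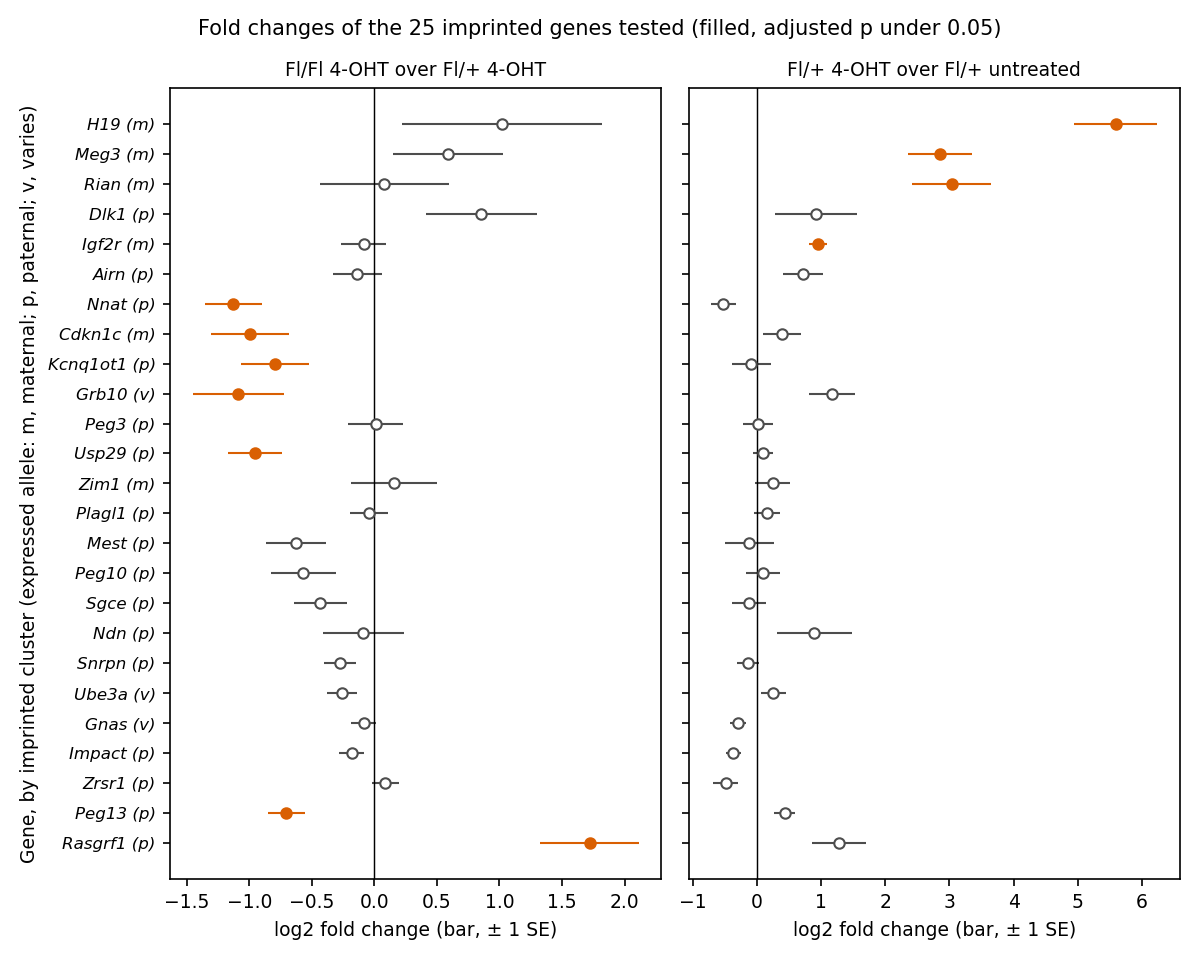
Log2 fold changes with bars of ± 1 SE for the 25 imprinted genes tested, with Fl/Fl over Fl/+ 4-OHT cultures on the left and Fl/+ 4-OHT over untreated cultures on the right, whose scale is wider. Filled points passed an adjusted p under 0.05, that is, 7 genes on the left (1 higher, 6 lower) and 4 on the right (all higher), and no gene is filled on both sides. The right side is the fit without the mouse as a replicate block. With that block Nnat, Grb10 and Peg13, filled on the left, were also called for 4-OHT.

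Marker sums of several cell types also differed between Fl/+ 4-OHT and Fl/Fl cultures. The 6 neuronal markers summed to 821 to 1020 CPM in Fl/+ 4-OHT and 555 to 816 CPM in Fl/Fl cultures. Map2 accounted for most of this sum, at a mean of 803 and 688 CPM. Dcx was at a mean of 45.0 and 7.78 CPM, and Syt1 at 2.28 and 2.18 CPM. The 5 oligodendrocyte markers summed to 475 to 983 and 633 to 2520 CPM, and the 3 ependymal markers to 40.2 to 92.8 and 76.6 to 104 CPM. The 3 pericyte markers summed to 1.0 to 2.34 and 1.46 to 3.99 CPM. The 4 meningeal or fibroblast markers summed to 101 to 301 and 118 to 307 CPM. The 5 astrocyte markers summed to 3200 to 4230 and 2580 to 5850 CPM, with a median of 3480 and 2780 CPM. The 8 neural stem cell markers summed to 8080 to 10500 and 6450 to 10300 CPM, with a median of 9770 and 7950 CPM. Mitochondrial genes held 1.36% to 2.19% of counts in Fl/Fl cultures, against 0.849% to 1.74% in Fl/+ 4-OHT cultures. The part of such cells and of this share in the values of Nnat, Peg13, Usp29 and Rasgrf1 was not tested.

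Fl/Fl 4-OHT cultures were also set against untreated Fl/+ cultures, where genotype and 4-OHT differ together. Of the 25 imprinted genes 10 (40%) were called, 5 higher and 5 lower, against 30.7% of 15032 genes. The list was selected on the 4-OHT difference, which is part of this comparison, so these counts carry no support of their own. Higher were H19 (log2 fold change 6.61), Meg3 (3.43), Rian (3.11), Igf2r (0.86) and Rasgrf1 (3.0), and lower were Nnat (-1.66), Usp29 (-0.87), Snrpn (-0.42), Gnas (-0.39) and Impact (-0.56). Snrpn lost its call in 7 of 10 fits with 1 library left out, with library size alone and with no filter (edgeR adjusted p up to 0.0922). Gnas lost it without the untreated library of mouse 24, without Fl/Fl 28, with library size alone, and with sex as a covariate without Fl/Fl 39 (up to 0.0594). For 4-OHT alone the log2 fold changes were 5.59 for H19, 2.85 for Meg3, 3.04 for Rian and 0.95 for Igf2r. The value of H19 here ran from 5.26 without Fl/Fl 37 to 7.43 without the untreated library of mouse 24. For Usp29 the values were -0.87 here, 0.10 for 4-OHT and -0.96 for the Trrap deletion. Nnat and Rasgrf1 had the same sign in all 3 comparisons, with log2 fold changes of -0.52 and 1.28 for 4-OHT. Grb10, at 1.17 for 4-OHT and -1.09 for the deletion, was at 0.08 here, with a sign that changed when Fl/Fl 37 was left out (-0.14). The 3 comparisons share libraries, so these values are not independent of each other.

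7 imprinted genes did not pass the filter in any comparison. Their highest counts in a library were 18 for Slc22a18, a transporter gene of the Kcnq1 cluster, 10 for Igf2, 7 for Mirg, 6 for Magel2, a MAGE family gene of the Snrpn-Ube3a cluster, 1 for Phlda2, which limits placental growth, and 0 for Dio3 and Snurf. The 10 counts of Igf2 were in Fl/Fl mouse 37, where Slc22a18, Mirg and H19 also had their highest counts. The annotation limits 2 of these values. All exon bases of Snurf (100%) are shared on the same strand with Snrpn and Gm38393, and 62.8% of those of Igf2 with Gm49394, so reads from there could be ambiguous and left uncounted. The same holds for 27.3% of the exon bases of Snrpn, which was tested and ranked by level above. Gm38393 had at most 122 counts and Gm49394 at most 2.

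A further 40 imprinted genes and 17 genes that set, keep, read or erase imprints were counted for comparison. Of the other imprinted genes 27 were tested for the Trrap deletion, with 7 higher and 2 lower (33.3% called, against 31.7% of all genes), and 26 for 4-OHT, with 1 higher and 3 lower (15.4% against 13.8%). Both shares are near those of genes at large. Of 15 imprint control genes tested, 9 (60%) were lower in Fl/Fl than in Fl/+ 4-OHT cultures and none higher, where 15% of all genes were lower and 16.8% higher. The median of the 15 was -0.32 on the log2 scale, against 0.02 over all genes. Zfp57, the zinc finger protein that keeps imprints methylated, had the largest difference of these 9 (log2 fold change -2.57 with SE 0.365 and an edgeR adjusted p of 0.000602), at 12.8 to 31.8 CPM in Fl/+ 4-OHT and 1.74 to 6.11 CPM in Fl/Fl cultures. The others were Uhrf1 (-0.90), which guides maintenance methylation, the Polycomb methyltransferase Ezh2 (-0.81), the dioxygenases Tet2 (-0.61) and Tet3 (-0.61), Dnmt3b (-0.47), Trim28 (-0.30), Ctcf (-0.29) and Ehmt2 (-0.19). With 4-OHT alone, Ehmt2 was lower (-0.27) and the other 14 were not called. With the mouse as a replicate block, where 3809 of 14821 genes were called, 5 of the 15 were, with Zfp57 (0.78), Dnmt1 (0.43), Tet1 (0.61) and Eed (0.28) higher beside Ehmt2, and 9 of the 26 other imprinted genes, 4 higher and 5 lower.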

How the data were processed

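The authors sequenced stranded poly(A) libraries of 15 aNSC cultures as single-end reads, with no molecular identifiers. The authors mapped reads to GRCm38 with STAR 2.5.4b and counted uniquely mapped reads per Ensembl gene and strand with featureCounts 1.5.0. The deposited values are raw counts. Ensembl IDs were matched to GENCODE symbols for 53620 of 53801 genes. Totals of 25720034 to 32187097 counts per library put 3 counts at 0.0942 to 0.119 CPM, and such floors cover counting error only.

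Groups came from the labels. Each comparison was fitted on its own 10 libraries with edgeR 4.0.16 in R 4.3.3 (filterByExpr with a minimum count of 10, TMM, quasi-likelihood F test, Benjamini-Hochberg adjustment over all genes tested, called under 0.05). The analysis was tested on simulated data. Cultures are the replicates. CPM used TMM over all 15 libraries, and levels between genes were compared only per kb of merged exon.

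Both Fl/+ groups carry the same mouse numbers. Deviations of 14821 genes from group means correlated with r of 0.153 to 0.634 within the 5 pairs and of -0.559 to 0.349 between the 20 other pairings, so the mouse served as a replicate block in an alternative. Other alternatives were DESeq2 1.42.0 (the study's tool), its size factors in edgeR, library size alone, no filter, sex, the range of title numbers (under or over 30), and each library left out. Leaving out the libraries at odds with their sex label, sex as a covariate without Fl/Fl 39, and the block without mouse 36 were added after seeing the data.

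The members, lists and tests were chosen with earlier results of these data known. Values in every library were given for genes called with at least a 2-fold change in the 4-OHT or Trrap deletion comparison, and for H19 and Igf2, Meg3 and Dlk1, and Igf2r and Airn. Cdkn1c, Usp29 and Peg13 were added after their values were seen. No 4-OHT dose is given, because labels and published methods state different ones.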

Additional observations from a re-analysis of the deposited data

Results flagged for a closer look

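In 75 sets of 5 libraries (25 genes in 3 groups), 5 held a library whose distance to its nearest neighbour was more than 0.71 of the range of the set on the log2(CPM + 0.5) scale, where chance gives about 1 in 20. In Fl/Fl cultures Dlk1 was at 7.24 CPM in mouse 37 against 1.96 to 2.86 CPM in the others. In untreated cultures of mouse 36, Grb10 was at 1.14 CPM against 2.61 to 3.34 CPM and Ndn at 1.84 CPM against 24.9 to 46.3 CPM. After 4-OHT the culture of mouse 36 had 715 CPM of Mest against 352 to 389 CPM. Ube3a was at 78.4 CPM in Fl/Fl mouse 29 against 91.8 to 96.3 CPM. 3 of these 5 values belong to mouse 36, whose libraries held Xist and Y-linked RNA together. The part of this in the values was not tested. On CPM without the log, 7 sets passed, of which 3 (Dlk1, Mest and Ube3a) also passed on the log2 scale. The other 4 were H19, Rian and Rasgrf1 in Fl/Fl 37 and H19 in the untreated library of mouse 24.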

How the results depend on the processing

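H19, Meg3, Rian and Igf2r were called higher after 4-OHT in every one of the 19 alternative fits. Nnat, Usp29, Peg13 and Rasgrf1 kept their call and direction for the Trrap deletion in each of the 18 alternatives run there. The other 3 calls of that comparison did not hold throughout. Leaving out 1 library in turn, Cdkn1c was not called in 5 of 10 fits, Kcnq1ot1 in 6 and Grb10 in 8. The number of imprinted genes called for the Trrap deletion then ranged from 4 to 8, with 4 without Fl/Fl 27, and it was also 4 without the libraries at odds with their sex label. In both cases Nnat, Usp29, Peg13 and Rasgrf1 were those called. The share of all genes called was 24.8% to 31% with 1 library left out. For 4-OHT the number of imprinted genes was 4 to 6 with 1 library left out (8.46% to 16.7% of all genes), 7 with DESeq2 (16.6%), 7 with the range of title numbers as a covariate (21.4%), 11 with the mouse as replicate block (3809 genes in all) and 10 with the block and without mouse 36 (24%), against 4 and 13.8% in the report. For Fl/Fl 4-OHT against untreated Fl/+ cultures it stayed between 8 and 13, with 14.6% to 36.7% of all genes. The mouse block changed no call of a gene that was called without it. Of the genes that were not called, 7 of 18 for the Trrap deletion changed the sign of their log2 fold change in at least 1 fit with a library left out. These were H19 (-0.34 to 1.52, the lowest without Fl/Fl 37), Rian (-0.41 to 0.46), Igf2r (-0.30 to just above 0), Peg3 (-0.18 to 0.12), Zim1 (-0.11 to 0.34), Plagl1 (-0.13 to 0.01) and Ndn (-0.30 to 0.06). For 4-OHT 6 of 21 did, namely Kcnq1ot1 (-0.23 to 0.17), Peg3 (-0.10 to 0.18), Usp29 (from just under 0 to 0.18), Mest (-0.35 to 0.34), Peg10 (-0.04 to 0.27) and Sgce (-0.27 to 0.16). For Fl/Fl 4-OHT against untreated Fl/+ cultures Grb10, Peg3 and Ube3a did. With library size alone, 1396 genes were called higher and 712 lower for 4-OHT, against 1088 and 956 with TMM, and 3150 higher and 1603 lower for Fl/Fl 4-OHT against untreated Fl/+ cultures, against 2357 and 2263. Other scalings moved the median over all genes by less than 0.1. Low counts limit the 7 genes that did not pass the filter, and shared exon bases limit Snurf and Igf2 among them. Shared exon bases also limit Snrpn among the genes tested. For Fl/Fl 4-OHT against untreated Fl/+ cultures, Igf2 was called higher with DESeq2 and with no filter, and Mirg with no filter.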
